A study of Homo sapiens with 41 samples.

Results

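Tight junctions and desmosomes are the seals and rivets between epithelial cells. At a tight junction, claudins, occludin and other membrane proteins meet their partners on the neighbouring cell and are tied to actin by scaffold proteins such as ZO-1, under the control of polarity complexes. At a desmosome, the desmosomal cadherins (desmogleins and desmocollins) bind between cells and are linked to keratin filaments by plakoglobin, plakophilins and desmoplakin. Loss of both kinds of junction is a textbook feature of the epithelial to mesenchymal transition, which transcription factors such as Twist, Snail and ZEB can drive. The genes described here were chosen by name: 25 tight junction genes and 10 desmosome genes, 35 of the 58735 gene rows in the count files, and the identifiers of all 35 were matched to symbols. Tight junction genes comprised 8 claudins, 3 MARVEL proteins, 4 adhesion proteins of the immunoglobulin type, 4 scaffolds, 5 polarity genes and EPCAM. Desmosome genes comprised 4 cadherins, 5 plaque proteins and PERP.

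RNA was sequenced from HMLE, an immortalised human mammary epithelial line, and LX-2, an immortalised line of human hepatic stellate cells, the matrix-producing cells of the liver. Every sample carried a hairpin, either a control (shCtrl) or one directed at ATF4 (shATF4), the main transcription factor of the integrated stress response. HMLE cells with each hairpin were labelled DMSO (vehicle), Twist_OE (overexpression of Twist, with the paralog not named), thapsigargin (a blocker of the calcium pump of the endoplasmic reticulum) or AA_Dep (not spelled out). LX-2 cells had the same conditions with TGFbeta in place of Twist_OE. No HMLE group was labelled as a vector control for Twist_OE, which was compared with DMSO. Effects of the vector or of making the cells cannot be told apart from those of Twist. The labels gave no dose, duration, vector for Twist_OE, hairpin sequence or number of hairpins, and did not say whether replicates were separate cultures, so p-values measure the spread between these samples, which may be technical. There were 16 groups of 2 samples, 32 in all, and 9 chromatin samples of LX-2 were not analysed here.

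Total counts ran from 15956909 to 23243132 per HMLE library and from 14551191 to 18776430 per LX-2 library. Both HMLE shATF4 AA_Dep files held identical values and were counted as 1 library. In LX-2, shCtrl thapsigargin replicate 2 stood apart, with 15840 genes having any count where the rest of that line had 22912 to 24255, and it was left out of every test below. The labels matched the targeted genes: ATF4 RNA was lower with shATF4 than with shCtrl in all libraries used, compared within a line and condition, and TWIST1 was higher in the Twist_OE libraries. HMLE libraries other than Twist_OE expressed all 8 basal mammary markers, summing to 7573 to 14330 CPM (counts scaled to a fixed library size). Over 15 LX-2 libraries these summed to 54.55 to 140.8 CPM, with 3 of the 8 reaching 1 CPM in every library. The 9 stellate markers summed to 951.6 to 17250 CPM in LX-2 and 17.87 to 35.87 in HMLE without Twist_OE. Of these, 5 reached 1 CPM in every LX-2 library and 3 in every such HMLE library. Of 7 epithelial markers, 2 did so in LX-2. KRT5 had no count in LX-2 shCtrl DMSO, and COL1A1 was at 4698 and 4933 CPM there. Levels below are normalised CPM for replicates 1 and 2, which do not account for gene length, so levels are compared between groups and never between genes. Changes are on the log2 scale, with an approximate standard error (SE), derived from the test statistic, after the ± sign. Where a group held few counts this SE can be too small. Where the libraries of 1 group lie apart from those of another, this only describes their values. With so few libraries it is common in unchanged genes too, and its share over all genes was not counted. In bulk RNA, fewer cells expressing a gene and less RNA per cell cannot be told apart.

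**Figure D1:**
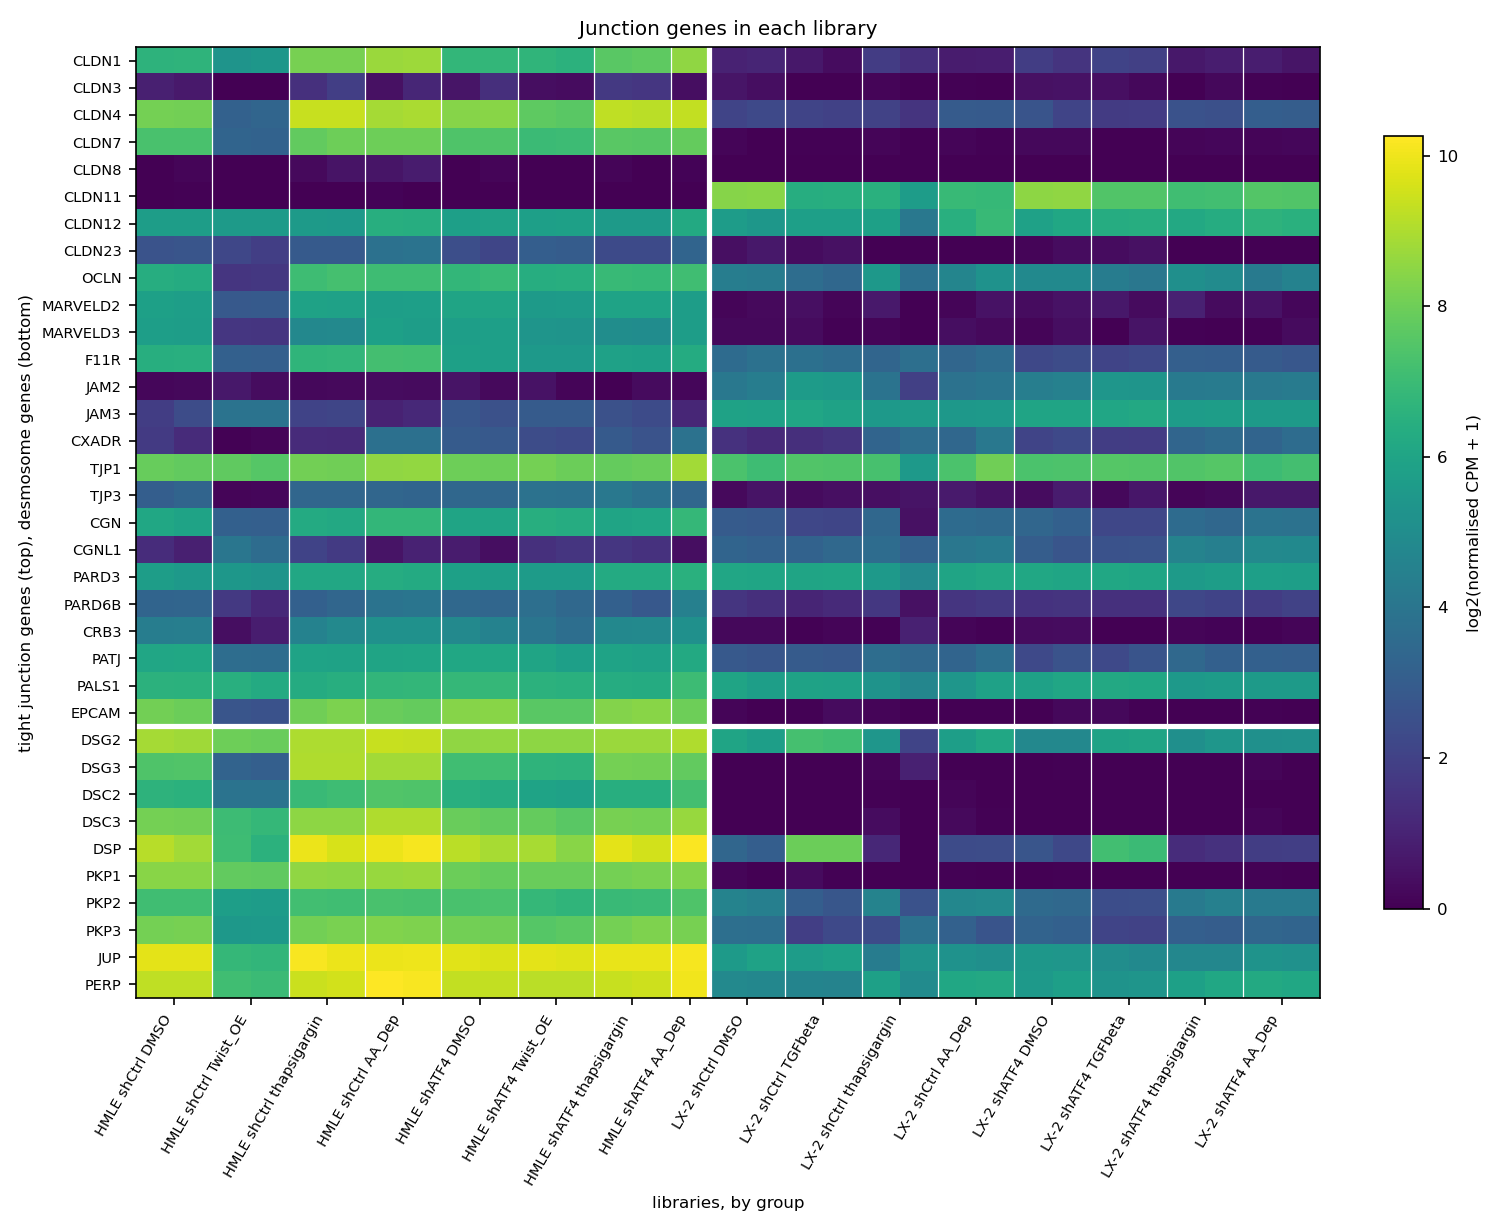
Level of each of the 35 genes in each of 31 libraries, as log2(normalised CPM + 1), with tight junction genes above the horizontal white line and desmosome genes below it; colours are to be read along a row. HMLE libraries are left of the thick vertical line and LX-2 libraries right of it. The shCtrl Twist_OE columns are darker than the other HMLE columns for most genes, and CLDN11 is bright in LX-2 alone.

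Resting HMLE cells expressed most of both junctions. In shCtrl DMSO, 30 of the 35 genes reached 1 CPM in both libraries, including all 10 desmosome genes, and the 5 below were CLDN3, CLDN8, CLDN11, JAM2 and CGNL1. In LX-2 shCtrl DMSO, 21 genes reached 1 CPM, 6 of them desmosome genes (DSG2, DSP, PKP2, PKP3, JUP and PERP). Between the lines in shCtrl DMSO, 26 of the 35 genes were higher in HMLE and 5 lower (edgeR quasi-likelihood test, adjusted p under 0.05, the threshold used throughout), where 34.5% of the 20308 genes tested were higher and 35.9% lower (70.4% in all). All 10 desmosome genes were higher in HMLE, with a median log2 difference of 5.25. Of the 25 tight junction genes 16 were higher and 5 lower, with a median of 2.82. The median over all genes tested was -0.07. The remaining 4 did not pass: CLDN3, CLDN8, CLDN12 and CXADR.

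Several members were all but absent from one of the lines. DSG3 (desmoglein 3), DSC2 and DSC3 (desmocollins 2 and 3) had no count in either LX-2 shCtrl DMSO library. Against a floor of 3 counts over the group they were at least 2300-fold, 1260-fold and 3590-fold higher in HMLE. PKP1 (plakophilin 1) had 2 counts in those LX-2 libraries, a ratio of 6750 (95% counting interval 1870 to 55700). CLDN7, a claudin of glandular epithelia, also had 2 counts, a ratio of 3140 (868 to 25900). EPCAM, an epithelial adhesion molecule that binds CLDN7, had 2 counts as well, a ratio of 5080 (1410 to 42000). These intervals cover counting error only. CLDN11, the claudin best known from myelin and Sertoli cells, ran the other way: it stood at 333 and 341 CPM in LX-2 and had 1 count over both HMLE libraries, a ratio of 13700 (2460 to 541000) in favour of LX-2. JAM2, JAM3, CGNL1 and PARD3 were the other members lower in HMLE. JAM3, an adhesion protein found in many cell types, stood at 58.6 and 57.1 CPM in LX-2 and 2.67 and 4.15 in HMLE. TJP1, which encodes the scaffold ZO-1, was expressed in both lines, at 236 and 219.8 CPM in HMLE and 164 and 134 in LX-2 (log2 difference 0.63 ± 0.13, adjusted p = 0.00014). The TJP1 call was lost when the LX-2 library left out of the tests was put back in the fit (adjusted p = 0.11). CLDN12 stood at 50.8 and 51.8 CPM in HMLE and 49.6 and 42.4 in LX-2 and did not pass the test (adjusted p = 0.16).

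RNA across both junctions was lower in HMLE shCtrl Twist_OE cells than in shCtrl DMSO cells. Of the 34 genes tested, 28 fell and 2 rose, where 28.9% of the 17940 genes tested fell and 28.3% rose (57.2% in all). All 10 desmosome genes fell, with a median log2 change of -2.15, and 18 of 24 tight junction genes fell, with a median over the 24 of -3.02. The median over all genes tested was 0.00. CLDN11 was not tested for lack of counts, and CLDN8, CLDN12, JAM2 and TJP1 did not pass. Markers of the cell type moved in the same libraries: all 8 basal mammary markers fell, to a summed 1274 to 1312 CPM against 7573 to 14330 in the HMLE libraries without Twist_OE. All 4 mesenchymal markers rose, to a summed 14100 to 18580 CPM against 425 to 6492, and so did the 6 stellate markers tested of 9, to 2820 to 2997 CPM against 17.9 to 35.9, with TCF21 and HAND2 at 0. The part of these markers' shift in the junction result was not tested.

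Of the claudins, which form the barrier and its pores, CLDN4 and CLDN7 fell far and CLDN1 and CLDN23 less. CLDN4 stood at 275 and 271 CPM in shCtrl DMSO and 8.09 and 9.21 in Twist_OE, a log2 change of -4.94 ± 0.07 (adjusted p = 1.8e-20). CLDN7 went from 159 and 158 to 8.77 and 8.36 CPM, a log2 change of -4.17 ± 0.08. CLDN1, a claudin also present in basal cells and skin, went from 98.5 and 99.6 to 38.4 and 42.6 CPM, a smaller log2 change of -1.25 ± 0.06. CLDN23 fell by 0.71 from 5.11 and 5.50 CPM, and CLDN3, already scarce with 31 counts over both DMSO libraries, had none in Twist_OE, at least 10.3-fold lower (floor of 3 counts over the group). OCLN (occludin, the first tight junction membrane protein known) went from 82.0 and 77.5 CPM to 2.04 and 2.20, a log2 change of -5.19 ± 0.10. MARVELD2 (tricellulin, which seals the corners where several cells meet) went from 55.9 and 52.4 to 6.26 and 6.59 CPM, and MARVELD3 from 53.3 and 51.5 to 2.09 and 1.96. All 3 MARVEL genes fell, with log2 changes from -3.03 to -5.19. OCLN, CLDN7, CXADR, CRB3, PARD6B and PERP have pseudogene copies in the names table, and the handling of reads shared with them is not given in the sources used here, so their values carry that uncertainty throughout.

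The adhesion proteins of the immunoglobulin type split by identity. F11R (JAM-A, which recruits polarity proteins to early junctions) stood at 84.2 and 86.5 CPM in DMSO and 7.78 and 7.62 in Twist_OE, and its fall was 3.43 ± 0.07 on the log2 scale. CXADR, the coxsackie and adenovirus receptor, had 77 counts in DMSO and 3 in Twist_OE, a ratio of 25.6 (95% counting interval 8.45 to 127). JAM3 went the opposite way, from 2.67 and 4.15 CPM to 13.9 and 13.9, and rose by 2.08 ± 0.17 (adjusted p = 5.4e-09). JAM2 stayed below 1 CPM in every HMLE library.

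Among scaffolds, TJP1 was at 236 and 219.8 CPM in DMSO and 217 and 187 in Twist_OE and did not pass (log2 change -0.14 ± 0.07, adjusted p = 0.09). Its paralog TJP3 (ZO-3, restricted to epithelia) went from 7.26 and 8.77 CPM to 0.104 and 0.140, a log2 change of -5.91 ± 0.30. The TJP3 level in Twist_OE rested on 5 counts over both libraries, so the size of this change is less certain than its SE shows. The cytoskeletal adaptors cingulin and paracingulin, which are related in sequence and both bind ZO proteins, moved in opposite directions. CGN (cingulin) went from 67.3 and 61.0 to 7.83 and 7.71 CPM, a log2 change of -3.01 ± 0.08. CGNL1 (paracingulin) went from 1.45 and 0.882 to 15.4 and 11.4 CPM, a log2 change of 3.54 ± 0.28.

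All 5 polarity genes fell, over a wide range of sizes. CRB3, the epithelial Crumbs protein that marks the apical membrane, went from 19.2 and 20.1 CPM to 0.313 and 0.748 (log2 change -5.13 ± 0.23). PATJ, which links the Crumbs complex to the junction, went from 66.3 and 67.6 to 11.8 and 11.2 CPM (log2 change -2.50 ± 0.08). PARD6B fell by 2.33, while PALS1 and PARD3, the remaining members, fell by only 0.17 and 0.21. Both calls were lost with DESeq2 (adjusted p = 0.068 for PARD3 and 0.082 for PALS1) and without shCtrl DMSO replicate 1 (0.28 and 0.093) or shCtrl Twist_OE replicate 2 (0.12 and 0.35). EPCAM stood at 265 and 247 CPM in DMSO and 5.53 and 4.95 in Twist_OE, and its log2 change was -5.57 ± 0.08, with adjusted p = 4.6e-20.

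**Figure D2:**
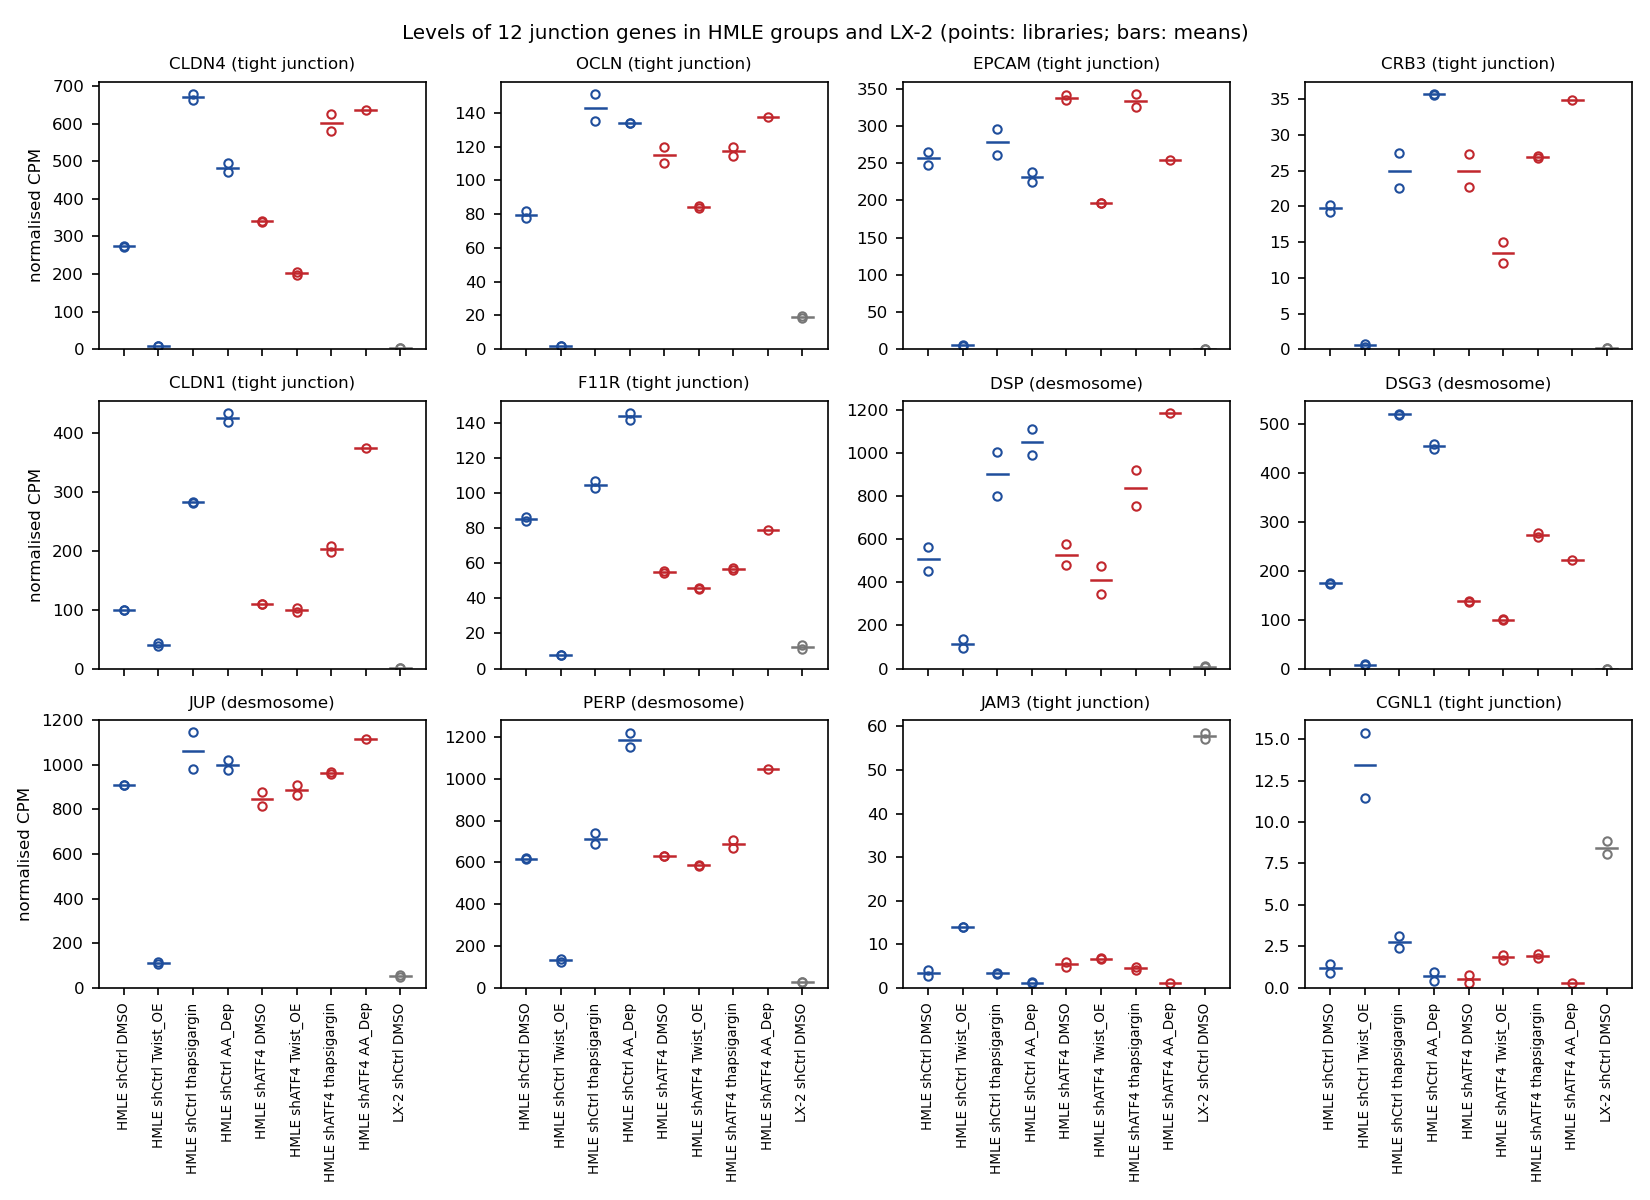
Normalised CPM of 12 junction genes in each HMLE group and in LX-2 shCtrl DMSO; points are libraries, bars are group means, blue is shCtrl, red is shATF4 and grey is LX-2, and each axis starts at 0. In 10 panels there is a low shCtrl Twist_OE group beside a higher shATF4 Twist_OE group, and JAM3 and CGNL1 show the reverse.

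In the desmosome, DSG3 changed most. DSG3 stood at 174 and 175 CPM in shCtrl DMSO and 8.61 and 7.52 in Twist_OE, a log2 change of -4.40 ± 0.06. DSC2 went from 97.0 and 93.4 to 14.0 and 14.2 CPM, a log2 change of -2.72 ± 0.07. The other cadherins kept more of their RNA: DSC3 fell by 1.14 and DSG2, the most widely expressed desmoglein, fell by 0.85. In the plaque, JUP (plakoglobin, shared with the adherens junction) went from 910.1 and 911 CPM to 114 and 108, a log2 change of -3.00 ± 0.07. DSP (desmoplakin, the link to keratin) went from 561 and 451 to 135 and 95.5 CPM, a log2 change of -2.10 ± 0.17. PKP3 fell by 2.63, PKP2 fell by 1.35 and PKP1 fell by 0.61, the smallest change of the 10. PERP, a membrane protein needed for desmosome assembly, went from 615 and 622 to 136 and 126 CPM. No desmosome gene fell below 1 CPM in the Twist_OE libraries, whereas CXADR, TJP3 and CRB3 did so in both. DSP and DSG2 have annotated antisense genes, and the counting strand is not given in the sources used here.

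Promoter sequences are shown because basic helix-loop-helix factors such as Twist bind E-boxes (CANNTG), and Snail and ZEB factors bind the form CAGGTG, which reads CACCTG on the other strand. Of the 35 genes, 23 had an entry in the RefSeq promoter table (GRCh38.p14), and the 250 bases before the annotated start were searched on both strands. The E-box CANNTG, which includes every CAGGTG, occurred in 11 of 23 (47.8%) against 61.8% of 35116 promoters in the table. CAGGTG or CACCTG occurred in 8 of 23 (34.8%) against 17.5%, and the 8 were CLDN7, OCLN, TJP3, CRB3, PATJ, DSG2, DSP and JUP. CATCTG or CAGATG occurred in 1 (DSG3, 4.35%) against 12.2%, and CATATG in none against 2.63%. TGATGNAA, a form of the amino acid response element, occurred in 1 (DSG3) against 3.14%. Printed 5′ to 3′ on the gene's strand, with E-boxes in capitals, are 5 genes that fell with Twist_OE and hold CAGGTG or CACCTG, then CLDN4, which fell with no E-box in the window, and CGNL1, which rose with none. The windows were chr19:6464021-6464270 (plus strand) for CRB3, chr17:7262479-7262728 (minus) for CLDN7, chr5:69492540-69492789 (plus) for OCLN, chr17:41785977-41786226 (minus) for JUP, chr6:7541421-7541670 (plus) for DSP, chr7:73830746-73830995 (plus) for CLDN4 and chr15:57376255-57376504 (plus) for CGNL1.
CRB3: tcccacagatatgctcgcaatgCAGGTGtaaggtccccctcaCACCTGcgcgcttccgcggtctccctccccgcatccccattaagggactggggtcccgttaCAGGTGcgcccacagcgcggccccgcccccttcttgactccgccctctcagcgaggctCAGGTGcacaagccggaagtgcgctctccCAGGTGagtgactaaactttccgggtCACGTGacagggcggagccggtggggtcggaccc
CLDN7: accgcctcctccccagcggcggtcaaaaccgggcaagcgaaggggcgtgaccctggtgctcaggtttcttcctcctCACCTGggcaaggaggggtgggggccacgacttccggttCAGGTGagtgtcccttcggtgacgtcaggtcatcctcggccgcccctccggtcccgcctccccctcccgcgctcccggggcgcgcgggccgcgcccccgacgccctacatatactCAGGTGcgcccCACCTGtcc
OCLN: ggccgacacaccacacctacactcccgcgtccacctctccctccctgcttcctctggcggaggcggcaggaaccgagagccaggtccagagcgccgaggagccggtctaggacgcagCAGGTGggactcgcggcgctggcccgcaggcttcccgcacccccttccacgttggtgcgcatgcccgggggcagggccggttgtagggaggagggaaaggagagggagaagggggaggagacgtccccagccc
JUP: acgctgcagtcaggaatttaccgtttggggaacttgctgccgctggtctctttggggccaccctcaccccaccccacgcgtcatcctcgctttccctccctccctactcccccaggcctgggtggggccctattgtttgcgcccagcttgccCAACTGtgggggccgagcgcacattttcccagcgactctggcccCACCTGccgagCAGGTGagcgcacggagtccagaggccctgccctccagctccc
DSP: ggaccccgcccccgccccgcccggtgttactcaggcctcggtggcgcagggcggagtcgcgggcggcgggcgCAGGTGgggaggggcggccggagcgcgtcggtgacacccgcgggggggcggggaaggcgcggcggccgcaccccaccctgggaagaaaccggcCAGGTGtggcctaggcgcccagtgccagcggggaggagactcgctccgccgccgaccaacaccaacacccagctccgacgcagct
CLDN4: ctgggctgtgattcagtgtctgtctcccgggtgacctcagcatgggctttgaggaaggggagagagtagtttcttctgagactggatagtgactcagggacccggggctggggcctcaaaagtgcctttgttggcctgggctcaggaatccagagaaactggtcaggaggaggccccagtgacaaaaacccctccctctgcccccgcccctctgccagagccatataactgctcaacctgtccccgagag
CGNL1: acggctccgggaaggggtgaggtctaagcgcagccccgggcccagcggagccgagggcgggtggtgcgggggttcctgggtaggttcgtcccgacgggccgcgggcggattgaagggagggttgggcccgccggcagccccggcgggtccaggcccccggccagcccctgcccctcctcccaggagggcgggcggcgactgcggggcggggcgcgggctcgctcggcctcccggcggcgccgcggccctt
The CRB3 window held 6 E-boxes, 5 of them CAGGTG or CACCTG, the CLDN7 window 4 of that form, and the OCLN window 1. OCLN with 1 match, CRB3 with 5 and CLDN4 with none changed by -5.19, -5.13 and -4.94 on the log2 scale. Of the other genes holding CAGGTG or CACCTG, TJP3 fell more than these, and CLDN7, JUP, PATJ, DSP and DSG2 fell less. Whether the change goes with the number of matches was not tested. A match describes the letters in this window, and binding was not measured in HMLE.

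Under the same Twist_OE label, shATF4 cells kept most junction RNA relative to their own DMSO group. TWIST1 RNA was lower in shATF4 Twist_OE than in shCtrl Twist_OE (values below), so these responses were not compared at equal Twist RNA. Between Twist_OE and DMSO in shATF4 cells, 16 of 34 genes fell and 4 rose, where 17.2% and 18.2% of all genes tested did (35.3% in all), and the median log2 change was -0.24 against -2.56 with shCtrl. Leaving out CLDN3, which was near 1 CPM, the 15 others fell by at most 0.85 on the log2 scale. Some of these calls were lost when a library was left out. Without shATF4 Twist_OE replicate 2, PATJ changed by -0.09 against -0.20 with all, CXADR by -0.61 against -0.69 and PALS1 by -0.19 against -0.25. Without shATF4 DMSO replicate 2, CLDN3 changed by -0.72 against -1.78 with all. CLDN4 went from 338 and 342 CPM in shATF4 DMSO to 206 and 198 in shATF4 Twist_OE, a log2 change of -0.71 ± 0.05. OCLN went from 110.1 and 119.7 to 83.6 and 84.6 CPM, a log2 change of -0.41 ± 0.06. EPCAM went from 335 and 341 to 197 and 197 CPM, a log2 change of -0.74 ± 0.06. These membrane genes thus kept most of their RNA. In the desmosome 4 of 10 genes fell, namely DSG3, DSC2, PKP2 and PKP3. JUP stood at 877 and 817 CPM in DMSO and 911 and 865 in Twist_OE, and DSP at 577 and 478 in DMSO and 476 and 344 in Twist_OE, and neither passed (adjusted p = 0.17 and 0.13). CGN, TJP3, CLDN23 and CGNL1 rose with Twist_OE in shATF4 cells, by 0.45, 0.54, 0.89 and 1.86. Of these 4, CGN, TJP3 and CLDN23 fell with Twist_OE in shCtrl cells.

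The difference between the 2 responses was tested as an interaction of hairpin and Twist_OE, given as the shATF4 response minus the shCtrl response. It passed for 27 of 34 genes, 25 above 0 and 2 below, where 29.7% of all genes passed (16.3% above and 13.4% below). All 10 desmosome genes were among the 25, with interactions from 0.65 (PKP1) to 3.99 (DSG3) and a median of 1.96. In the tight junction 15 of 24 were above 0, with a median over the 24 of 2.63, led by TJP3 (log2 interaction 6.44 ± 0.34), EPCAM (log2 interaction 4.84 ± 0.10), OCLN (log2 interaction 4.78 ± 0.12), CRB3 (log2 interaction 4.28 ± 0.29), CLDN4 (log2 interaction 4.23 ± 0.09) and MARVELD3 (log2 interaction 4.23 ± 0.12). The TJP3 value rested on 5 counts over both shCtrl Twist_OE libraries, so its size and rank are uncertain. JAM3 and CGNL1 were below 0, at -1.72 ± 0.25 and -1.68 ± 0.56. For CGNL1 the call was lost when any of 4 libraries was left out, with adjusted p up to 0.47 without shATF4 DMSO replicate 1. CLDN3, CLDN8, CLDN12, JAM2, TJP1, PARD3 and PALS1 did not pass. The CGNL1 level was 1.68 and 1.99 CPM in shATF4 Twist_OE against 0.742 and 0.295 in shATF4 DMSO. Compared directly within Twist_OE, 30 of 34 genes were higher with shATF4 than with shCtrl and 2 were lower, JAM3 and CGNL1, where 23.3% of all genes were higher and 23.9% lower (47.2% in all). With DESeq2 size factors 28 were higher, and with the DESeq2 test 27. The small differences of PKP1 (0.12) and PALS1 (0.16) were lost in both, and that of CLDN12 (0.19) with the DESeq2 test. The PKP1 call was also lost whichever of the compared libraries was left out.

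**Figure D3:**
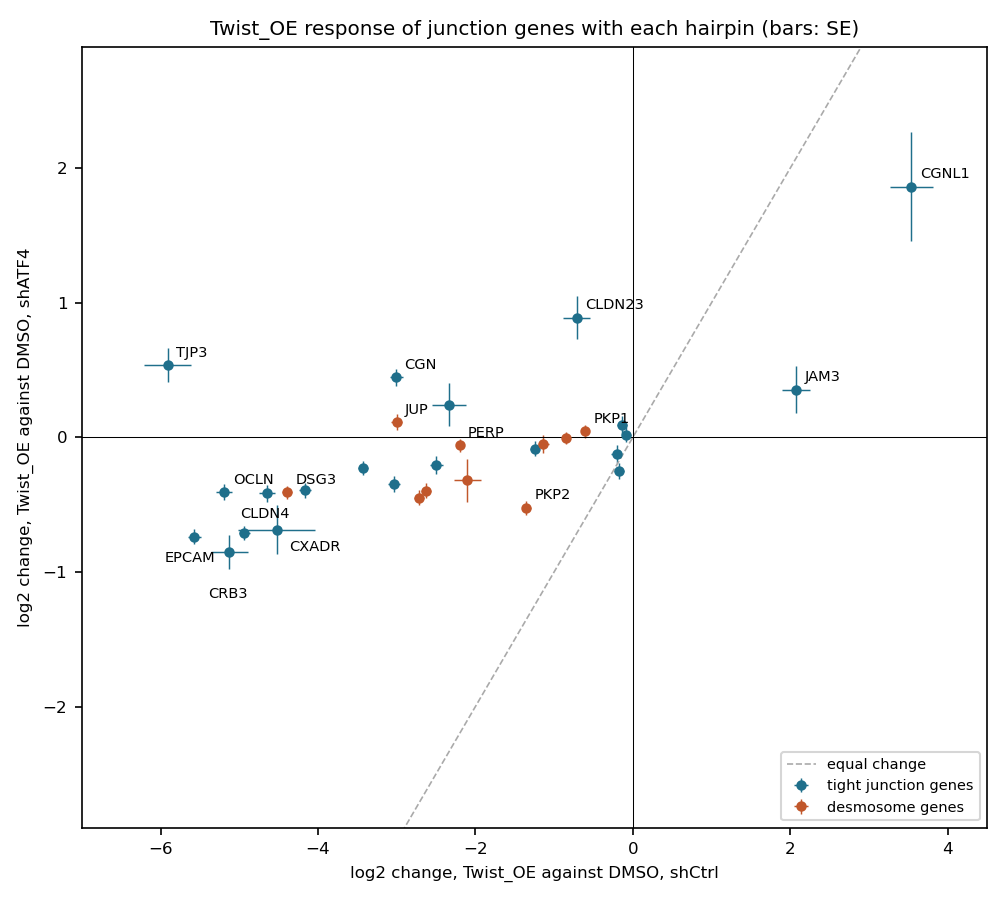
Log2 change of junction genes with Twist_OE against DMSO, in shCtrl cells (horizontal axis) and shATF4 cells (vertical axis), with SE bars; the dashed line marks equal changes, and CLDN3, CLDN8, CLDN11 and JAM2 are left out for low counts. The 2 axes differ in scale. Most genes lie far left of the dashed line, near 0 on the vertical axis, and CGNL1 and JAM3 lie to the right.

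TWIST1 RNA differed between these groups. TWIST1 stood at 17.8 and 17.3 CPM in shCtrl DMSO, 126 and 139.8 in shCtrl Twist_OE, 15.7 and 10.8 in shATF4 DMSO and 31.1 and 32.1 in shATF4 Twist_OE. Its rise was 2.96 ± 0.11 with shCtrl and 1.30 ± 0.12 with shATF4 on the log2 scale (interaction -1.66 ± 0.17, adjusted p = 2.6e-07). TWIST2 stood at 3.47 and 3.94 CPM in shCtrl DMSO, 21.0 and 20.6 in shCtrl Twist_OE and 6.78 and 6.60 in shATF4 Twist_OE. Counts do not tell the cell's own gene from an introduced copy. ZEB1, a repressor of epithelial genes that Twist can induce, stood at 78.6 and 70.0 CPM in shCtrl Twist_OE and 9.24 and 10.3 in shATF4 Twist_OE, with 4 DMSO libraries below 1 CPM. GRHL2, an activator of tight junction and adhesion genes in epithelia, stood at 115 and 113 CPM in shCtrl DMSO, 3.81 and 3.46 in shCtrl Twist_OE and 86.3 and 87.9 in shATF4 Twist_OE. So less TWIST1, less ZEB1 and more GRHL2 RNA accompanied the higher junction RNA with shATF4. Their part in the hairpin's result was not tested. All 8 basal mammary markers were higher with shATF4 in Twist_OE too, with a summed level of 7408 to 7674 CPM in shATF4 Twist_OE against 1274 to 1312 in shCtrl Twist_OE. The 4 mesenchymal markers summed to 3677 to 4477 CPM in shATF4 Twist_OE against 14100 to 18580 in shCtrl Twist_OE.

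Thapsigargin raised part of both junctions in HMLE shCtrl cells. Of 34 genes 19 rose and 3 fell, where 18.6% of all genes rose and 18.2% fell (36.8% in all), with a median log2 change of 0.24 over the 34. In the desmosome 8 of 10 rose, and PKP2 and PKP3 did not pass. Of the 8, PKP1 rose by only 0.14, a call lost without the filter on low counts (adjusted p = 0.071) and on leaving out single libraries. Without shCtrl thapsigargin replicate 1 the JUP change was 0.11 against 0.24 with all libraries, and its call was lost. DSG3 stood at 174 and 175 CPM in DMSO and 518 and 521 in thapsigargin, a log2 change of 1.59 ± 0.05 (adjusted p = 5.1e-15). CLDN1 went from 98.5 and 99.6 to 282 and 281 CPM, a log2 change of 1.52 ± 0.06. CLDN4 went from 275 and 271 to 664 and 678 CPM, a log2 change of 1.31 ± 0.05. OCLN, DSP and CLDN7 also rose, by 0.86, 0.84 and 0.59. The 3 that fell were MARVELD3 (log2 change -0.94 ± 0.07), PALS1 (-0.20) and CLDN12 (-0.17). MARVELD3 went from 53.3 and 51.5 to 26.8 and 27.5 CPM, against the direction of its relative OCLN. The CLDN12 call was lost with DESeq2 (adjusted p = 0.12) and without shCtrl DMSO replicate 1 (0.086), DMSO replicate 2 (0.15) or thapsigargin replicate 2 (0.22). The PALS1 call was lost without shCtrl DMSO replicate 1 (0.087), DMSO replicate 2 (0.063) or thapsigargin replicate 1 (0.12). Without shCtrl DMSO replicate 2, 14 genes were called rather than 22, and DSG2 (adjusted p = 0.077) was also among those lost. Cell type markers moved in these libraries too: 7 of 8 basal mammary markers rose, with a summed 14070 to 14330 CPM against 8821 to 8971 in DMSO, and all 4 mesenchymal markers rose, with 674 to 863 CPM against 425 to 475. Their part in the junction result was not tested.

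AA_Dep also raised members of both junctions. In shCtrl cells 23 of 34 genes rose and 2 fell, where 29.1% of all genes rose and 32.6% fell (61.7% in all), and the median was 0.66. All 4 desmosomal cadherins rose, by 0.50 (DSG2) to 1.34 (DSG3). CLDN1 went from 98.5 and 99.6 CPM in DMSO to 418 and 433 in AA_Dep, a log2 change of 2.07 ± 0.06. PERP went from 615 and 622 to 1222 and 1152 CPM, a log2 change of 0.90 ± 0.05. DSP went from 561 and 451 to 991 and 1112 CPM, a log2 change of 1.02 ± 0.16. Scaffolds rose too, with TJP1 at 378 and 385 CPM against 236 and 219.8 in DMSO (log2 change 0.71 ± 0.07) and CGN up by 0.73, and PARD3 rose by 0.69. CXADR, which thapsigargin did not change past the test, went from 2.34 and 1.40 to 12.8 and 12.9 CPM, a log2 change of 2.72 ± 0.20. EPCAM and JAM3 were the 2 that fell, JAM3 from 2.67 and 4.15 to 1.0 and 1.25 CPM (log2 change -1.62 ± 0.26) and EPCAM by 0.19, a call lost with DESeq2 (adjusted p = 0.12) and without shCtrl AA_Dep replicate 1 (0.083), AA_Dep replicate 2 (0.39) or DMSO replicate 1 (0.12). CLDN8 had 20 counts in AA_Dep against 2 in DMSO, a ratio of 12.4 (95% counting interval 3.01 to 109). Its call was lost with DESeq2 (adjusted p = 0.079) and without shCtrl AA_Dep replicate 2 or DMSO replicate 1. Without that DMSO library its log2 change was 2.45 against 3.42 with all. Thapsigargin and AA_Dep were compared with the same DMSO libraries, so their results are not independent. With AA_Dep 5 of 8 basal mammary markers rose and 1 fell, with a summed 11440 to 11850 CPM against 8821 to 8971 in DMSO. Of 4 mesenchymal markers 3 rose, with a summed 4293 to 4960 CPM against 425 to 475 in DMSO. Their part in the junction result was not tested.

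**Figure D4:**
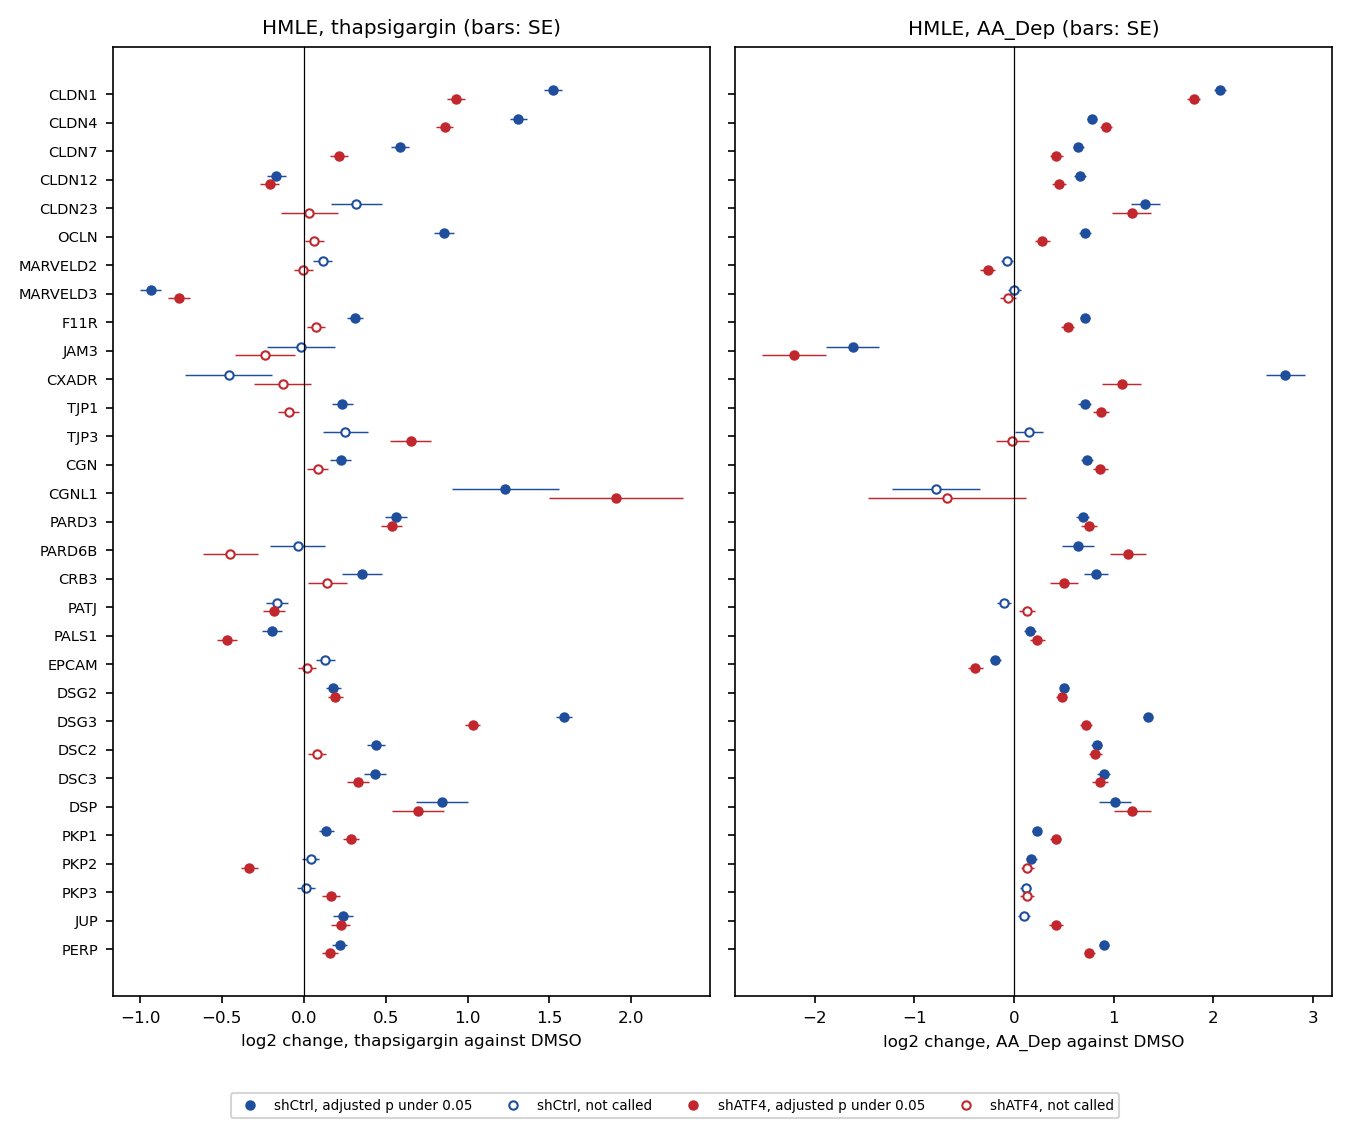
Log2 change of each junction gene in HMLE with thapsigargin (left) and AA_Dep (right) against DMSO, for shCtrl (blue) and shATF4 (red); bars are SE, filled points passed an adjusted p of 0.05 and open points did not, and CLDN3, CLDN8, CLDN11 and JAM2 are left out for low counts. The shATF4 AA_Dep group is 1 library. CLDN1 lies to the right in both panels, DSG3 to the right under thapsigargin, and CXADR with shCtrl and JAM3 lie at the ends under AA_Dep.

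In shATF4 cells thapsigargin raised 14 of 34 genes and lowered 5, where 16.8% of all genes rose and 15.7% fell. AA_Dep, with its single shATF4 library assumed to vary like the other groups, raised 22 and lowered 3, where 25.7% of all genes rose and 28.4% fell (54.1% in all). The interaction of hairpin and thapsigargin passed for 7 of 34 genes, all below 0, where 4.56% of all genes passed (2.16% above and 2.4% below 0). These were OCLN (log2 interaction -0.79 ± 0.08), CLDN1 (log2 interaction -0.59 ± 0.08), DSG3 (log2 interaction -0.56 ± 0.07), CLDN4 (-0.45), CLDN7 (-0.38), PKP2 (-0.37) and DSC2 (-0.36), the last a call lost without shCtrl DMSO replicate 2 (adjusted p = 0.067) or shCtrl thapsigargin replicate 2 (0.054). Values show the pattern for OCLN: thapsigargin took it from 82.0 and 77.5 to 135 and 151 CPM with shCtrl, but shATF4 cells stood at 110.1 and 119.7 CPM in DMSO already and 119.8 and 114 in thapsigargin. DSG3 went from 138 and 136 CPM to 277 and 269 with shATF4, below its shCtrl level in both conditions. The interaction with AA_Dep passed for 3 genes, all below 0, where 5.09% of all genes passed (2.99% above and 2.1% below 0): CXADR (log2 interaction -1.64 ± 0.29), DSG3 (log2 interaction -0.62 ± 0.07) and OCLN (log2 interaction -0.43 ± 0.10). CXADR stood at 6.77 and 6.38 CPM in shATF4 DMSO and 13.7 in the single shATF4 AA_Dep library, so its AA_Dep level was near that of shCtrl and its DMSO level above it.

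The hairpins were also compared within the conditions other than Twist_OE. In DMSO 8 of 34 genes were higher with shATF4 and 6 lower, where 6.08% and 6.72% of all genes were (12.8% in all). All 4 desmosomal cadherins were lower with shATF4 in DMSO, and again in thapsigargin and in AA_Dep. DSG3 differed by -0.37, -0.93 and -0.99 in the 3 conditions, and DSG2 by -0.29, -0.28 and -0.31. DSC2 differed by -0.21, -0.57 and -0.23, and DSC3 by -0.28, -0.38 and -0.31. In DMSO the calls for DSC2 and DSC3 were lost without shATF4 DMSO replicate 2 (adjusted p = 0.2 and 0.13) or shCtrl DMSO replicate 1 (0.15 and 0.065). The DSC2 call was also lost in DMSO with DESeq2 (0.059) and without shCtrl DMSO replicate 2 (0.052), and in AA_Dep with DESeq2 (0.053) and without shCtrl AA_Dep replicate 1 (0.082) or replicate 2 (0.055). PKP1, a plaque protein, was also lower in all 3 conditions, with differences of -0.53, -0.38 and -0.34. F11R was the tight junction gene lower in all 3: it stood at 84.2 and 86.5 CPM with shCtrl and 55.8 and 54.6 with shATF4 in DMSO, at 103 and 107 with shCtrl and 57.4 and 56.1 with shATF4 in thapsigargin, and at 146 and 142 with shCtrl and 78.9 with shATF4 in AA_Dep. The F11R value for shATF4 in AA_Dep rests on only 1 library. CXADR was higher with shATF4 in DMSO and thapsigargin, by 1.77 and 2.10. OCLN and EPCAM were higher in DMSO, by 0.51 and 0.38. In thapsigargin 4 genes were higher and 14 lower, where 12.3% and 11.9% of all genes were, and in AA_Dep 4 were higher and 7 lower, where 9.77% and 7.09% were (16.9% in all). Both counts of 4 are near those shares. With only the compared groups fitted, 14 genes were called in thapsigargin in place of 18. Lost were MARVELD3, CLDN4, CGN and PKP2 (adjusted p = 0.12, 0.065, 0.059 and 0.07). The TJP1 call in thapsigargin was lost on leaving out single libraries. When single libraries were left out, 8 to 11 genes were called in DMSO in place of 14. In AA_Dep 11 were called, 7 without shCtrl AA_Dep replicate 1, and 19 when only the compared groups were fitted. In DMSO, 4 of 8 basal mammary markers were lower with shATF4 and 1 higher, and 3 of 7 epithelial markers were higher, and their part in these differences was not tested.

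HMLE shCtrl Twist_OE was also set against LX-2, a line of mesenchymal character. Against LX-2 shCtrl DMSO, 13 of 25 tight junction genes were higher in HMLE Twist_OE and 8 lower, with a median log2 difference of 0.27 (31.6% of all genes tested were higher and 32.2% lower, 63.8% in all). All 10 desmosome genes were still higher, with a median of 3.04, and HMLE DMSO had a median of 5.25 against the same LX-2 libraries. DSC3 stood at 129 and 112 CPM in HMLE Twist_OE and had no count in LX-2, at least 1580-fold higher, and PKP1 at 219 and 216 CPM had a ratio of 4300 (95% counting interval 1190 to 35500). OCLN at 2.04 and 2.20 CPM in Twist_OE was below its LX-2 level of 19.6 and 18.4, a log2 difference of -3.15 ± 0.20. F11R at 7.78 and 7.62 CPM was also below LX-2, at 11.1 and 13.4. CLDN4 at 8.09 and 9.21 CPM remained above LX-2, at 3.34 and 3.84 (log2 difference 1.27 ± 0.14). CGNL1 at 15.4 and 11.4 CPM exceeded its LX-2 level of 8.87 and 8.05, having been below it in HMLE DMSO, a call lost without HMLE shCtrl Twist_OE replicate 1 (adjusted p = 0.072). The calls for CGN, TJP1 and CRB3 in this comparison were also lost when single libraries were left out, with adjusted p up to 0.15, 0.073 and 0.27, and that for CGN with DESeq2 as well (0.17). With the LX-2 library left out of the tests put back in the fit, the CGN and TJP1 calls were lost too (adjusted p = 0.66 and 0.24). The difference between the subsets was not tested.

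LX-2 cells, the reference line, changed a few junction genes of their own with TGFbeta. These LX-2 comparisons were added after the values were seen. Of 25 members tested in LX-2, 3 rose and 6 fell with TGFbeta in shCtrl cells, where 11.1% of all 18649 genes tested rose and 11% fell (22.1% in all). The count that rose is near its share of all genes, so the rises below describe single genes. With the discordant library in the fit 2 were called in place of 9. DSP stood at 9.52 and 7.28 CPM in DMSO and 247 and 250.1 in TGFbeta, a log2 change of 4.92 ± 0.15 (adjusted p = 2.7e-12). With shATF4 it went from 5.56 and 3.66 to 140.2 and 125 CPM, a log2 change of 4.87 ± 0.16. DSP thus rose with either hairpin, and the shATF4 libraries lay below the shCtrl libraries in both conditions. DSG2 went from 62.3 and 52.1 to 148 and 138 CPM with shCtrl and from 26.9 and 27 to 59.0 and 62.2 with shATF4. The cadherins DSG3, DSC2 and DSC3, on the other hand, had no count in LX-2 TGFbeta with either hairpin. JAM2, an endothelial and stromal adhesion protein, went from 16.4 and 19.5 to 48.0 and 45.4 CPM (log2 change 1.41 ± 0.11). CLDN11 fell, from 333 and 341 to 83.3 and 84.1 CPM (log2 change -1.98 ± 0.07). PKP2 (-1.72) and PKP3 (-1.88) fell as well, and so did OCLN (-0.80), CGN (-0.87) and CLDN1 (-1.28, at levels near 1 CPM). The CLDN1 call was lost with DESeq2 (adjusted p = 0.093) and without shCtrl DMSO replicate 1 (0.091), DMSO replicate 2 (0.16) or TGFbeta replicate 2 (0.3), and the OCLN call without TGFbeta replicate 2 (0.078). Of 8 stellate markers tested 6 rose with TGFbeta in shCtrl cells and 1 fell, and their part in the junction changes was not tested. With shATF4, 4 members rose and 8 fell with TGFbeta, where 13.5% of all genes rose and 14.1% fell, and 2 were called with the discordant library. Here too the count that rose is near its share.

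**Figure D5:**
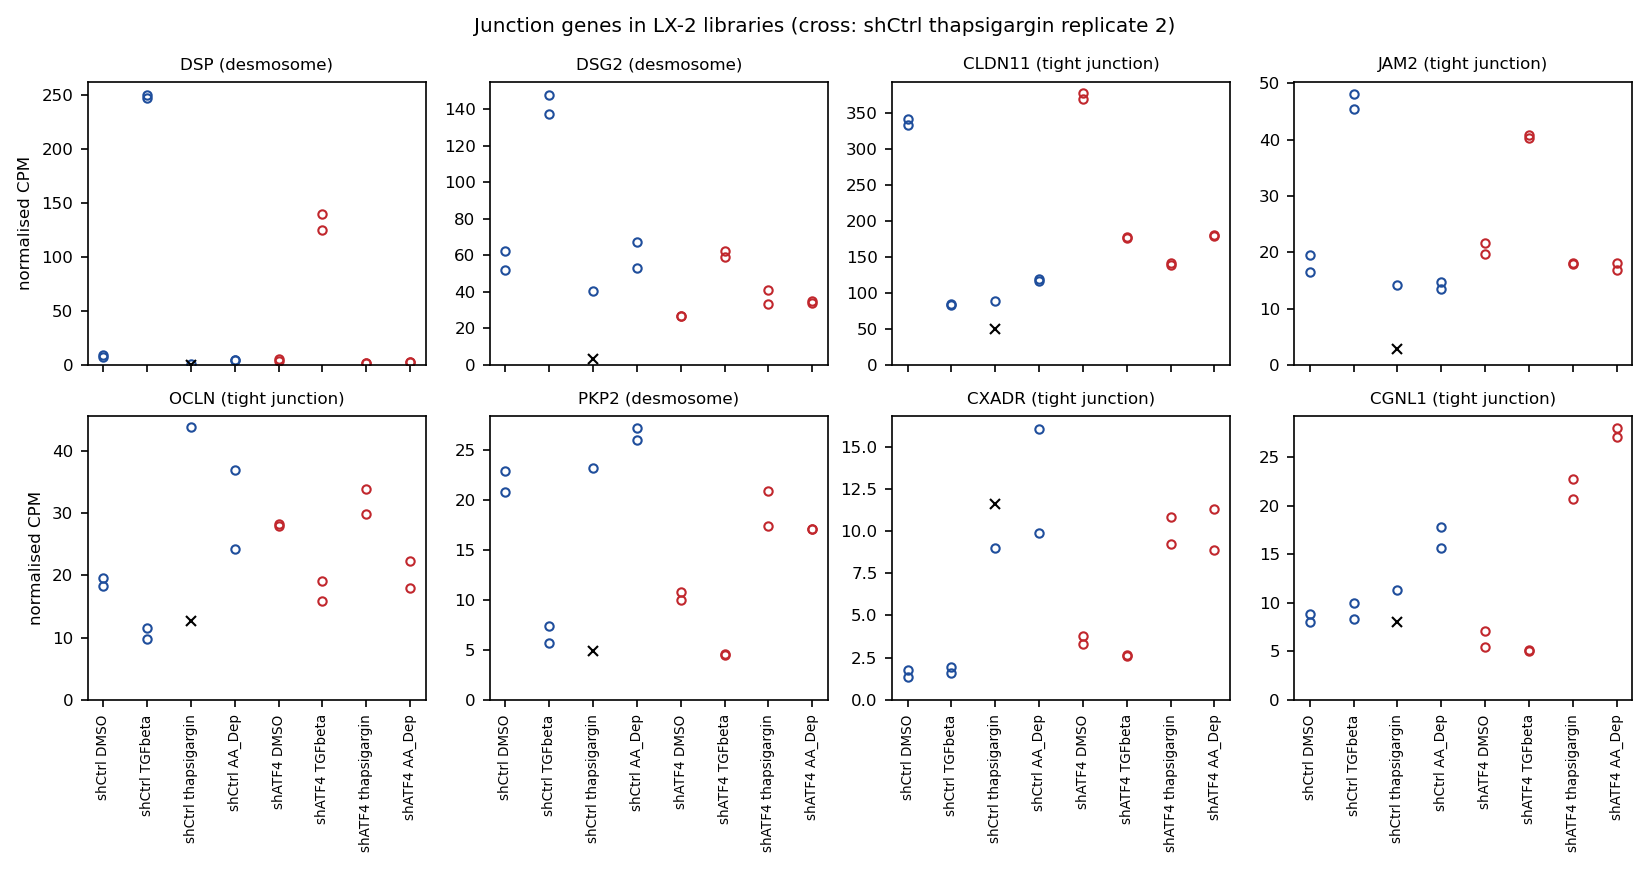
Normalised CPM of 8 junction genes in each LX-2 library, by group (blue, shCtrl; red, shATF4); the black cross is shCtrl thapsigargin replicate 2, which was left out of the tests. Within each hairpin DSP, DSG2 and JAM2 are highest in TGFbeta, CLDN11 is highest in DMSO, and CXADR is high in thapsigargin and AA_Dep.

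AA_Dep in LX-2 shCtrl cells raised 9 of 25 members and lowered 7, where 22.8% of all genes rose and 22.7% fell (4 were called with the discordant library). CXADR went from 1.74 and 1.33 CPM to 9.87 and 16.1, a log2 change of 3.08 ± 0.26, in the same direction as in HMLE. PERP went from 27.1 and 25.8 to 68.9 and 72.8 CPM, and CGNL1 from 8.87 and 8.05 to 15.6 and 17.8. DSP fell, from 9.52 and 7.28 to 4.13 and 4.26 CPM (log2 change -0.99 ± 0.18), the opposite of its direction in HMLE (the difference was not tested), and CLDN11 fell by 1.51. With shATF4 against shCtrl, 5 members were higher and 4 lower in LX-2 DMSO, where 6.28% and 5.3% of all genes were, and 5 higher and 6 lower in TGFbeta, where 10.9% and 10.7% were. With the discordant library these came to 1 and 3 members called. F11R was lower with shATF4 in LX-2 DMSO as in HMLE DMSO, at 3.67 and 4.26 CPM against 11.1 and 13.4 in LX-2 (log2 difference -1.60 ± 0.17). In HMLE Twist_OE, by contrast, F11R was higher with shATF4, at 46.0 and 45.7 CPM against 7.78 and 7.62. DSG2 was lower with shATF4 in DMSO of both lines too, with a difference of -1.07 in LX-2.

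Other genes of these junctions, 33 in a list that leaves out the members, were also measured. With Twist_OE in shCtrl cells 13 of the 26 tested fell and 5 rose, with a median of -0.39, where 28.9% of all genes fell and 28.3% rose. PPL (periplakin, a relative of desmoplakin) stood at a mean of 344 CPM in DMSO and 23.8 in Twist_OE (log2 change -3.82 ± 0.08). DSG4 and ILDR1 also fell, and CLDN18 rose, all 3 from or to less than 1 CPM. LSR, which recruits tricellulin to the corners between cells, stood at 205 CPM in DMSO and 18.3 in Twist_OE (log2 change -3.44 ± 0.08). With shATF4, 3 of the 26 fell and 4 rose with Twist_OE, both near or below the 17.2% and 18.2% of all genes. The interaction passed above 0 for 10, where 16.3% of all genes did, and below 0 for 2, where 13.4% did. AA_Dep raised 13 and lowered 4 of the 26 in shCtrl cells, where 29.1% of all genes rose and 32.6% fell. Thapsigargin raised 6 and lowered 2, of which the first is near the 18.6% of all genes that rose and the second below the 18.2% that fell.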

How the data were processed

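Per the labels' protocols, RNA was isolated on Qiagen RNeasy columns and libraries were made with a SMARTER kit for mRNA. The authors deposited 1 file of raw gene counts per sample, with Ensembl identifiers. The submitters' processing notes name cutadapt, Bowtie2, STAR, HOMER, featureCounts, DESeq, hg19 and hg38 without roles, and the build, annotation and strand setting behind the counts are not given in the sources used here. Identifiers were matched to symbols for 58207 of 58735 rows. Counts were analysed in R 4.3.3 with edgeR 4.0.16: trimmed-mean normalisation, filterByExpr by group, and quasi-likelihood tests with Benjamini-Hochberg adjustment over all genes tested, called under 0.05. A first fit held 15 HMLE libraries (17940 genes), a joint fit 30 libraries of both lines (20308) and another 15 LX-2 libraries (18649). Levels were normalised over all 31 libraries together. The SE is the size of the log2 change divided by the root of its F statistic, and it can be too small where counts are few. Ratios with 1 to 3 counts carry exact counting intervals, and these and the floor of 3 counts cover counting error only.

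The 2 deposited HMLE shATF4 AA_Dep files were identical, and both headers name replicate 1, so the group was taken as 1 library, assumed to vary like the others. LX-2 shCtrl thapsigargin replicate 2 correlated with its partner at 0.935, against at least 0.991 in all other groups, and was left out of the fits. Replicate numbers were checked as pairs: deviations of same-numbered samples correlated between -0.021 and 0.0925 over 21 group pairs in HMLE and between -0.24 and 0.153 over 28 in LX-2, so the numbers were not treated as pairs. Alternatives were DESeq2 size factors, the DESeq2 1.42.0 Wald test, no filter, a replicate block, only the compared groups, and leaving out each library. The members and gene lists were chosen with earlier results of these data known. Every member could be named, with up to 4 called genes of largest change and 2 others from each further list, plus ATF4, TWIST1 and markers. The analysis steps were tested on simulated counts. Markers of luminal mammary, hepatocyte, endothelial and leukocyte cells were also summed: over the HMLE libraries without Twist_OE these reached at most 136, 0.295, 4.29 and 0.571 CPM, and over LX-2 libraries 12.7, 0.334, 7.95 and 3.47 CPM. Markers of epithelia summed to 3163 to 6163 CPM in HMLE without Twist_OE and 371.5 to 1487 in LX-2.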

Additional observations from a re-analysis of the deposited data

Results flagged for a closer look

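The response to Twist_OE differed between hairpins, by the test of the interaction (shATF4 response minus shCtrl response, log2), in 27 members. Among claudins the interaction was 1.16 for CLDN1, 4.23 for CLDN4, 3.78 for CLDN7 and 1.60 for CLDN23. Among MARVEL genes it was 4.78 for OCLN, 2.69 for MARVELD2 and 4.23 for MARVELD3. In the immunoglobulin type it was 3.20 for F11R, 3.84 for CXADR and -1.72 for JAM3. Scaffolds gave 6.44 for TJP3, 3.45 for CGN and -1.68 for CGNL1. Polarity genes gave 2.58 for PARD6B, 4.28 for CRB3 and 2.29 for PATJ, and EPCAM gave 4.84. Desmosomal cadherins gave 0.85 for DSG2, 3.99 for DSG3, 2.27 for DSC2 and 1.09 for DSC3. Plaque genes gave 1.78 for DSP, 0.65 for PKP1, 0.83 for PKP2, 2.23 for PKP3 and 3.11 for JUP, and PERP gave 2.14.

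The response to thapsigargin differed between hairpins in 7 members, by -0.59 for CLDN1, -0.45 for CLDN4, -0.38 for CLDN7, -0.79 for OCLN, -0.56 for DSG3, -0.36 for DSC2 and -0.37 for PKP2. The call for DSC2 was lost without shCtrl DMSO replicate 2 (adjusted p = 0.067) or shCtrl thapsigargin replicate 2 (0.054). The response to AA_Dep differed in 3 members, by -0.43 for OCLN, -1.64 for CXADR and -0.62 for DSG3, and the OCLN call was lost without shATF4 DMSO replicate 2 (0.059) or shCtrl DMSO replicate 2 (0.058).

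LX-2 groups that entered no comparison held levels at least 5 CPM and over 2-fold the highest DMSO library of the same hairpin for CXADR and CGNL1. CXADR had a mean of 10.3 CPM in shCtrl thapsigargin, from 8.99 and 11.6 CPM in replicate 1 and the discordant replicate 2, against 1.74 and 1.33 in shCtrl DMSO. It had a mean of 10 CPM in shATF4 thapsigargin and 10.1 CPM in shATF4 AA_Dep, against 3.34 and 3.76 in shATF4 DMSO. CGNL1 had a mean of 21.7 CPM in shATF4 thapsigargin and 27.5 CPM in shATF4 AA_Dep, against 7.12 and 5.46 in shATF4 DMSO. These differences were not tested.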

How the results depend on the processing

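No member call reversed under any alternative run. In the HMLE comparisons 248 of 253 member calls were kept with DESeq2 size factors, 235 with the DESeq2 test, 247 without the filter, 242 of 250 with only the compared groups, and 963 of 1082 when a library was left out. Members called with Twist_OE in shCtrl cells were 28 to 31 without 1 library, against 30. With a library left out, 14 to 19 members were called with thapsigargin in shCtrl cells (22 with all), 8 to 11 between hairpins in DMSO (14) and 7 to 8 between hairpins in AA_Dep (11). The hairpins in AA_Dep gave 19 with only the compared groups, and the AA_Dep interaction gave 5 without the filter and 8 with only the compared groups, against 3.

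With the discordant LX-2 library in the fit, members called fell to 2 with TGFbeta in shCtrl (9 without it), 2 in shATF4 (12), 4 with AA_Dep (16), and 1 and 3 between hairpins in DMSO and TGFbeta (9 and 11). Between the lines, 59 of 62 member calls were kept with the discordant library. Leaving out a library gave 7 to 10 with TGFbeta in shATF4 and 4 to 6 between hairpins in LX-2 DMSO.

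Counts over all genes moved more than 1.5-fold in these cases. Between hairpins in HMLE DMSO 1101 to 1470 genes were called with a library left out, against 2295. The thapsigargin interaction gave 499 to 1061 against 818, and the AA_Dep interaction 577 to 722 against 914, or 1378 with only the compared groups. In LX-2, TGFbeta gave 2304 to 3364 in shCtrl against 4129 (560 with the discordant library) and 2781 to 3592 in shATF4 against 5146 (430). AA_Dep gave 5569 with only the compared groups and 2318 with that library, against 8496. Between hairpins, LX-2 DMSO gave 787 to 1454 against 2160 (43), and TGFbeta gave 2128 to 2357 against 4044 (229), or 6952 with only the compared groups. The causes of these shifts were not tested.

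With the replicate number as a block, 253 of 253 HMLE member calls, 62 of 62 between lines and 56 of 57 in LX-2 were kept, and OCLN between hairpins in LX-2 DMSO was lost (adjusted p = 0.054). The labels do not say that the numbers pair samples. With 2 libraries a group, and 1 for shATF4 AA_Dep, the spread rests on that shared across groups. CLDN3, CLDN8, CLDN11 and JAM2 in HMLE, and the 10 members not tested in LX-2, had too few counts for most changes to be detectable at this depth.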

Other observations

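Other junctions of HMLE cells moved with Twist_OE too. In shCtrl cells 7 of 10 adherens junction genes fell and 2 rose, with a median log2 change of -1.23, where 28.9% of all genes tested fell and 28.3% rose. CDH1 (E-cadherin) stood at 572 and 562 CPM in DMSO and 22.8 and 18.9 in Twist_OE, and CDH3 (P-cadherin) at 669.9 and 663 in DMSO and 34.2 and 36.0 in Twist_OE. NECTIN4 fell by 3.49, and NECTIN3 rose by 5.88 on the log2 scale. Of 6 hemidesmosome genes, which anchor cells to the basement membrane, 3 fell (COL17A1 -3.36, ITGB4 -2.91, ITGA6 -0.94) and 3 rose, so this small list had no common direction. Of 7 gap junction genes 5 fell, among them GJB5 (-2.88), and 2 rose, the latter near the share of all genes. The interaction of hairpin and Twist_OE passed above 0 for 7 of the adherens, 3 of the hemidesmosome and 5 of the gap junction genes, and below 0 for 1, 1 and 2, where 16.3% of all genes passed above and 13.4% below.

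Of 15 transcription factors of epithelia and of the transition, 8 fell and 5 rose with Twist_OE in shCtrl cells, and the 5 are near the 28.3% of all genes that rose. GRHL3 and ELF3, both epithelial activators, fell (-5.48 and -5.17), and ZEB1 and ZEB2 rose by 8.74 and 7.21 from under 1 CPM. In LX-2 shCtrl cells TGFbeta raised SNAI1 from 3.59 and 4.61 to 37.3 and 35.6 CPM and SNAI2 from 24.5 and 21.0 to 62.7 and 58.6 CPM, in the libraries where DSP, DSG2 and JAM2 were high.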
